A study of Mus musculus with 2 samples.

Results

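The complexin family of the mouse has 4 genes, and all 4 were found by symbol among the 32813 symbols of the deposited expression table. Cplx3 and Cplx4 are the complexins of ribbon synapses, and Cplx1 and Cplx2 those of conventional synapses. The samples form 1 group of type 5 bipolar cells, obtained by fluorescence-activated sorting of dissociated retinas of the Htr3a-GFP line. In that line a green fluorescent protein marks cells in which the Htr3a promoter is active, so the sort follows that promoter and not the type 5 identity itself. The group has 2 total RNA libraries, which the design text calls biological replicates, and there is no other genotype, treatment or cell population to set them against. The sources used here do not give the animals' age or sex, or how many animals went into a library.

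Complexins are small cytosolic proteins that bind the assembled SNARE complex, the bundle of syntaxin, SNAP-25 and synaptobrevin helices that draws a vesicle to the plasma membrane. They hold primed vesicles back from spontaneous fusion and help them fuse when calcium binds synaptotagmin. Bipolar cells and photoreceptors release glutamate continuously at synaptic ribbons, and in the mouse retina these terminals are known for Cplx3 and Cplx4, whereas Cplx1 and Cplx2 are known from the conventional synapses of amacrine and ganglion cells. Cplx3 and Cplx4 end in a CAAX motif, a cysteine followed by 3 further residues, which is farnesylated and ties the protein to membranes. Cplx1 and Cplx2 lack it.

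That difference can be read at the 3′ end of the coding sequences, and the last 30 bases of the principal transcripts are shown for this reason. They come from the GENCODE M21 transcripts, whose assembly GRCm38 is that of mm10, and are written 5′ to 3′ with the 4 codons before the stop codon in capitals.
Cplx3: caatcagctgagaagTGCCATATCATGtga
Cplx2: gggccgctgcaggacATGTTCAAGAAGtaa
Cplx1: gggccactgcaggacATGTTCAAGAAGtaa
The Cplx3 end lies at chr9:57602237-57602266 on the minus strand, the Cplx2 end at chr13:54379680-54379709 on the plus strand and the Cplx1 end at chr5:108520129-108520158 on the minus strand. The fourth codon before the stop is TGC, a cysteine codon, in Cplx3, and Cplx4 also has a cysteine codon there. Cplx1 and Cplx2 have ATG in that place, and their capitals are the same letter for letter. The coding sequence has 483 bases in Cplx4 and 477 in Cplx3, against 405 in Cplx2 and 405 in Cplx1. In global alignments of the coding sequences 63.1% of aligned columns were identical between Cplx3 and Cplx4 and 79.8% between Cplx1 and Cplx2, while the 4 pairs across the types had 49.2% to 52.3%.

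The sorted cells carried all 4 complexin RNAs, and the ribbon-type members made up most of the sum. Values are in TPM, a transcripts-per-million unit that is already divided by transcript length, so levels can be set side by side between genes. Cplx4 had 1071 TPM in replicate 1 and 816 in replicate 2, a mean of 943 ± 180.4 TPM (SD, n = 2), and ranked 70 by mean TPM among all symbols. Cplx3 had 195 and 243 TPM, a mean of 219 ± 33.8 (SD, n = 2), at rank 592. Both ribbon-type genes were thus above 100 TPM in each library, as were 6.57% of all genes with a value above 0, and Cplx4 was the higher of the pair in each. Cplx2 had 45.8 TPM in replicate 1 and 38.15 in replicate 2, a mean of 42.0 ± 5.42 (SD, n = 2), at rank 4136. Cplx1, the lowest of the family, had 14.2 and 24.7 TPM, a mean of 19.5 ± 7.42 (SD, n = 2), at rank 7214. Both conventional genes stayed below 50 TPM, and each of their values was below each value of the ribbon-type genes. By mean TPM, Cplx2 was still above 87.4% of all symbols and Cplx1 above 78.0%.

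**Figure D1:**
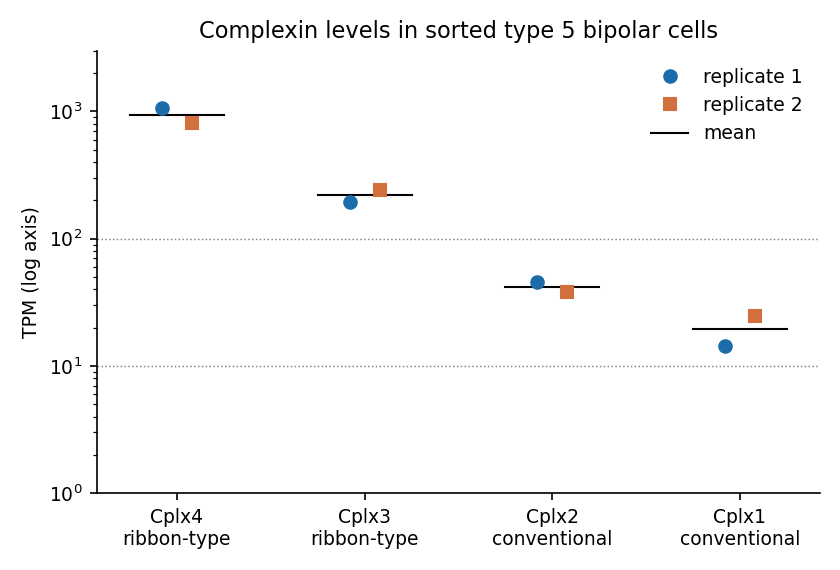
TPM on a log axis for the 4 complexins in the sorted type 5 bipolar cells, with a circle for replicate 1, a square for replicate 2, a bar for their mean and dotted lines at 10 and 100 TPM. Cplx4 and Cplx3 lie above 100 TPM in both libraries, and Cplx2 and Cplx1 lie between 10 and 100 TPM.

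Whether a level was above a set line was tested in limma over 19968 genes, those not at 0 in both libraries (log2(TPM + 1), one-sided, Benjamini-Hochberg adjusted p under 0.05). All 4 complexins were above 1 TPM, where 55.5% of all genes tested were. Above 10 TPM were 3 of the 4, Cplx4, Cplx3 and Cplx2, against 32.4% of all genes, and Cplx1 did not pass (limma, adjusted p = 0.156). When TPM was rescaled without the mitochondrial genome, Cplx1 passed that line as well (limma, adjusted p = 0.0271). Above 100 TPM were 2 of the 4, Cplx4 and Cplx3 (limma, adjusted p = 0.000235 for Cplx3), against 4.08% of all genes. In this fit the variance of a gene was read from the trend of variance with abundance. When limma instead shared 1 variance prior over all abundances, neither gene passed the 100 TPM line (adjusted p = 0.0661 for Cplx4 and 0.703 for Cplx3), and 30 genes of the whole table did, against 815.

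The levels fell in the same order in both libraries, Cplx4, Cplx3, Cplx2, Cplx1. Cplx4 exceeded Cplx3 by 5.48 times in replicate 1 and 3.35 times in replicate 2, a log2(TPM + 1) difference of 2.10 ± 0.50 (SD, n = 2). Cplx3 exceeded Cplx2 by 4.26 and 6.37 times, a log2 difference of 2.35 ± 0.40. Cplx2 exceeded Cplx1 by 3.22 and 1.54 times, a log2 difference of 1.11 ± 0.72 (SD, n = 2). Each step between neighbours was larger than its SD over the libraries, and that between Cplx2 and Cplx1 was the smallest. An exact sign-flip test over 2 libraries cannot go below p = 0.5 (two-sided), so none of these steps was tested.

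Set as pairs, Cplx3 and Cplx4 summed to 1266 TPM in replicate 1 and 1059 in replicate 2, against 60.0 and 62.9 TPM for Cplx1 and Cplx2. The sum of the ribbon-type genes was 21.1 times that of the conventional genes in replicate 1 and 16.8 times in replicate 2. As a difference of mean log2(TPM + 1), ribbon-type minus conventional, this was 4.10 and 3.81, a mean of 3.96 ± 0.20 (SD, n = 2). The ribbon-type genes therefore held 95.5% of the summed complexin TPM in replicate 1 and 94.4% in replicate 2, and the conventional genes 4.53% and 5.61%. Cplx4 alone held 80.7% and 72.7%, Cplx3 14.7% and 21.7%, Cplx2 3.45% and 3.40%, and Cplx1 1.07% and 2.20%. A share within the family is not changed by rescaling a library, but it depends on the transcript lengths used to make TPM and on complexin RNA of any other cells in the sort. The principal transcripts have 1815 bases in Cplx4 and 2859 in Cplx3, against 4928 in Cplx2 and 2189 in Cplx1. Weighted back by these lengths, which approximates shares of reads, the ribbon-type genes held 90.7% and 90.0%.

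**Figure D2:**
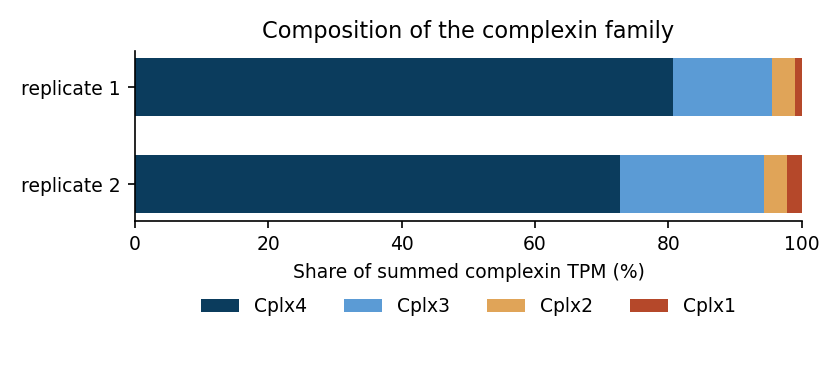
Share of the summed TPM of the 4 complexins held by each gene, in percent, with 1 horizontal bar for each library. Cplx4 takes 80.7% in replicate 1 and 72.7% in replicate 2, and Cplx2 and Cplx1 together take 4.53% and 5.61%.

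The libraries differed in opposite directions for different complexins. Cplx3 and Cplx1 were higher in replicate 2 than in replicate 1, by log2(TPM + 1) differences of 0.31 and 0.76, while Cplx4 and Cplx2 were lower there, by differences of -0.39 and -0.26. Gaps of that size were common among genes of like level. Of the 178 genes with a mean TPM within 2-fold of Cplx4, 41.0% differed more between the libraries than Cplx4 did, and of the 1245 genes within 2-fold of Cplx3, 56.7% differed more than Cplx3. For Cplx2 the share was 75.7% of 4886 genes and for Cplx1 47.0% of 5556 genes. The median absolute log2 difference of such genes was 0.32 around Cplx4, 0.37 around Cplx3, 0.57 around Cplx2 and 0.71 around Cplx1, so the spread was wider at the levels of the conventional genes. Transcripts of the mitochondrial genome took 17.3% of TPM in replicate 1 and 24.6% in replicate 2, which lowers all other TPM values more in replicate 2. Rescaled without them, Cplx4 stood at 1295 and 1082 TPM, Cplx3 at 236 and 323, Cplx2 at 55.4 and 50.6, and Cplx1 at 17.2 and 32.8, in replicate 1 and replicate 2 in that order. The sign of each gene's difference between the libraries stayed as it was.

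**Figure D3:**
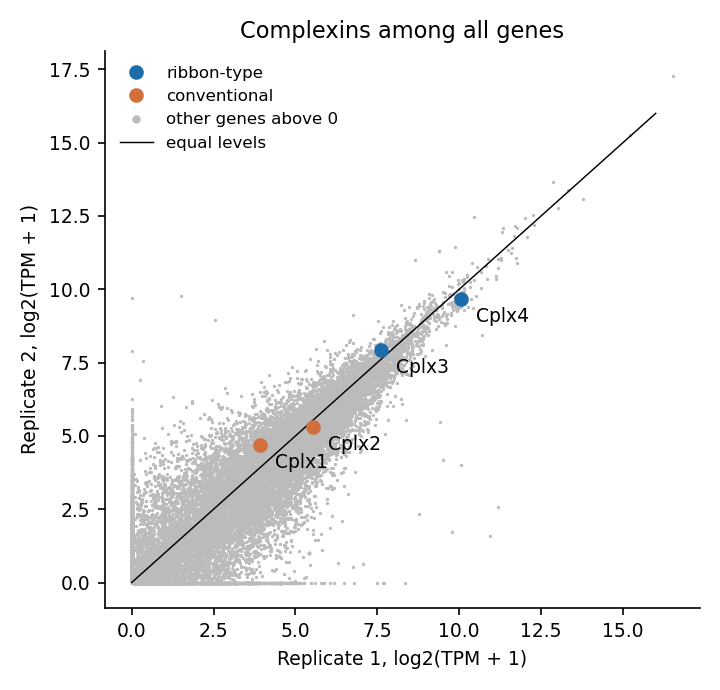
log2(TPM + 1) in replicate 1 (horizontal) and replicate 2 (vertical) for all 19968 genes above 0 in either library, with the complexins enlarged and a line of equal levels. The complexins lie close to the line, with Cplx1 and Cplx3 above it and Cplx2 and Cplx4 below it, and the cloud of other genes is wider at the level of Cplx1 than at that of Cplx4.

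The complexins share little sequence through which reads could be exchanged within the family. The longest run shared by transcripts of Cplx1 and Cplx2, the most alike pair, had 32 bases, and the other pairs shared at most 14. The shared run of Cplx1 and Cplx2 lies in their coding sequences and is shown because it is the longest stretch that a read could not assign to 1 of the pair.
Cplx1 and Cplx2: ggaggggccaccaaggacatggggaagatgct
Of all words of 50 bases in the annotated transcripts of each gene, none of Cplx4 or Cplx1 occurred in a transcript of another gene, while 0.237% of those of Cplx3 and 2.12% of those of Cplx2 did, counting both strands. The sources used here give no read length.

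No annotated gene of GENCODE M21 (GRCm38) overlaps a complexin. Cplx4 spans chr18:65955722-65970237 and Cplx3 chr9:57599992-57606281, both on the minus strand. Cplx2 spans chr13:54371349-54383917 on the plus strand, and Cplx1 spans chr5:108518554-108550024 on the minus strand. All 4 are protein-coding, and TPM is per gene, so it does not say which exons were read. RefSeq on GRCm38.p6 gives Cplx2 an extent of 81960 bases, against 12569 in GENCODE, so the transcript length behind its TPM may depend on the annotation release, which no source used here names. The upstream neighbour of Cplx3 is Lman1l, on the same strand with 803 bases between them, and RefSeq lists its symbol among the synonyms of Cplx3. Lman1l had 23.7 TPM in replicate 1 and 15.5 in replicate 2, against 195 and 243 TPM for Cplx3, and was lower in the library where Cplx3 was higher. On the other side of Cplx3, Ulk3, a kinase gene on the opposite strand, had 18.3 and 28.2 TPM. The neighbours of Cplx4 were Lman1, a cargo receptor gene of the early secretory pathway, at 66.8 and 56.2 TPM, and Raxos1, an antisense gene, at 0.89 and 5.26 TPM. Gm16248, a noncoding neighbour of Cplx2, was listed at 0 in both libraries. The other neighbour of Cplx2 and those of Cplx1 were not found by symbol in the deposited expression table.

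The complexins act on a release machinery that was abundant in the same cells. Of 34 genes for SNARE proteins, their chaperones, priming factors and calcium sensors, 25 were above 1 TPM and 21 above 10 TPM in limma, where 55.5% and 32.4% of all genes were. In log2(TPM + 1) the list had a median of 5.92, against 3.22 over all genes tested. Snap25, a SNARE gene of the plasma membrane, had 2313 TPM in replicate 1 and 1712 in replicate 2, and was the highest of the list. The summed complexin TPM came to 57.3% and 65.5% of that of Snap25. Vamp2, which encodes synaptobrevin 2, had 444 and 462 TPM, and its paralog Vamp1 had 165 and 106 TPM. The calcium sensor gene Syt1 had 492 and 381 TPM and Syt4 457 and 482 TPM. Cplx4 by itself was above Vamp2, Syt1 and Syt4 in both libraries. At the low end of the list Doc2a was listed at 0 in both libraries and Syt2 in replicate 1, with 0.54 TPM in replicate 2.

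Stx3, the syntaxin of retinal ribbon synapses, had 328 TPM in replicate 1 and 285 in replicate 2. Stx1a, a syntaxin of conventional synapses, had 0.79 TPM in replicate 2 and a listed 0 in replicate 1, so Stx3 was the higher of the pair in both libraries. Synapsins, vesicle proteins known from conventional terminals and largely missing from ribbon terminals, were not among the low genes. Syn1 had 99.5 and 136.8 TPM and Syn2 28.1 and 22.4 TPM, with Syn3 at 18.5 and 14.5 TPM, so Syn1 was above both conventional complexins in each library.

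**Figure D4:**
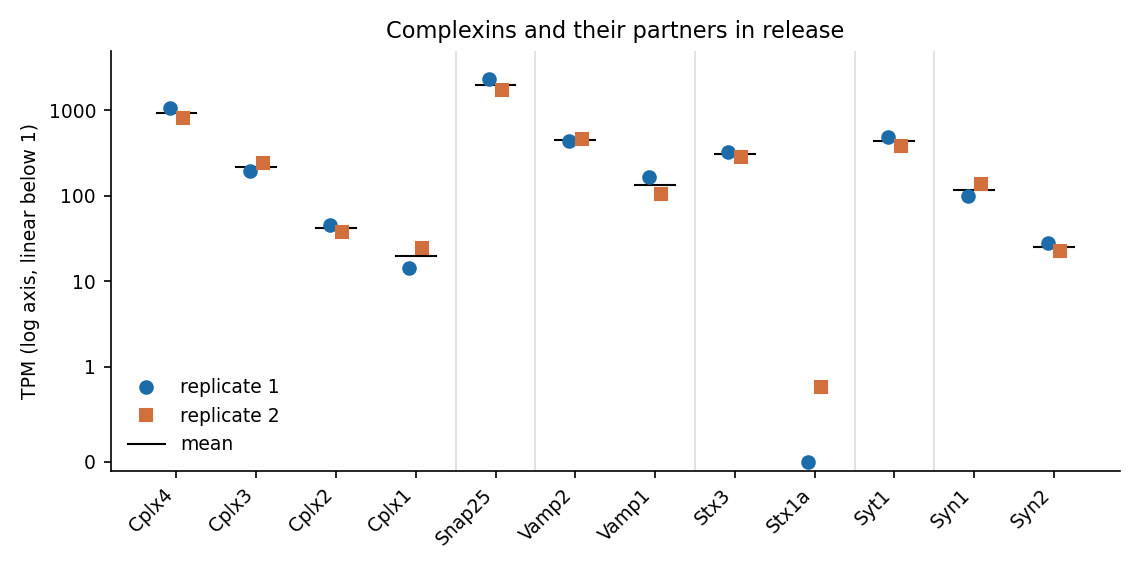
TPM in replicate 1 (circles) and replicate 2 (squares) for the complexins, the SNARE genes Snap25, Vamp2, Vamp1, Stx3 and Stx1a, the calcium sensor gene Syt1 and the synapsins Syn1 and Syn2, on a log axis that is linear below 1 TPM, with a bar for the mean where no library is at 0. Cplx4 lies below Snap25 alone in both libraries, and Stx1a lies below Cplx1 in each library.

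Over the 17 genes of the ribbon synapse list, 14 were above 10 TPM in limma, against 32.4% of all genes, and in log2(TPM + 1) the list had a median of 7.52, against 3.22 over all genes. Beside Snap25 and Vamp2 it was led by Syp, the vesicle protein gene of synaptophysin, at 687 ± 207 TPM, and Slc17a7, the vesicular glutamate transporter gene, at 307 ± 1.99 TPM (SD, n = 2). The lowest were Rimbp2, which encodes a binding protein of active zone RIM proteins, at 5.29 ± 0.64 TPM, and Cabp4, a calcium-binding protein gene of photoreceptor terminals, at 0.55 ± 0.55 TPM (SD, n = 2). Of the 12 genes of the conventional synapse list, 2 were above 10 TPM, Syn1 and Syn2, and the list had a median log2(TPM + 1) of 1.80, which was 0.21 in replicate 1 and 3.48 in replicate 2, against 3.44 and 3.18 over all genes. In replicate 2 the list was thus not below all genes. Sv2c was listed at 0 in replicate 2 with 0.20 TPM in replicate 1, and Slc17a6, the glutamate transporter gene of ganglion cells, at 0 in replicate 2 with 0.10 TPM in replicate 1. The lists mix genes of different function, so the gap between their medians is no measure of ribbon against conventional synapses.

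The enzymes that lipidate a CAAX end were present as well. Of 7 genes for farnesyl synthesis, transfer and processing, 7 were above 1 TPM and 4 above 10 TPM in limma, against 55.5% and 32.4% of all genes. Fnta and Fntb, the subunits of protein farnesyltransferase, stood at 27.1 ± 18.3 and 28.3 ± 12.7 TPM (SD, n = 2). Icmt, which methylates the farnesylated cysteine, stood at 143 ± 41.3 TPM and Pde6d, a carrier of prenylated proteins, at 59.7 ± 6.46 TPM. Fdps, the enzyme that makes farnesyl diphosphate, and Zmpste24, a protease of prenylated proteins, were the lowest, at 13.4 ± 6.10 and 13.8 ± 1.85 TPM (SD, n = 2). All 7 genes were thus below the mean of Cplx3. Fnta differed between the libraries, at 14.2 TPM in replicate 1 and 40.1 in replicate 2. Rce1, the remaining gene of the list, differed more, at 1.55 TPM in replicate 1 and 27.4 in replicate 2. Its level in replicate 1 was thus close to the 1 TPM line. Rce1 was named after its values were seen.

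Most type 5 markers were expressed, and so were some markers of other retinal cells. Of 7 type 5 genes, 5 were above 10 TPM in limma, a line that 32.4% of all genes passed, Htr3a among them at 89.9 ± 1.48 TPM (SD, n = 2), and Chrm2 and Slitrk5 were not above 1 TPM. Of 10 genes shared by bipolar or ON bipolar cells 9 were above 10 TPM, led by Cabp5 and Neurod4. In a bulk sample fewer cells of a type and less RNA per cell cannot be told apart. Photoreceptors also carry Cplx4 and Cplx3 at their ribbons. Of 14 rod genes 8 were above 10 TPM, led by Gngt1 and Rom1, and the list summed to 1954 TPM in replicate 1 and 1997 in replicate 2. Cplx4 had 1071 and 816 TPM in the same libraries. Of 10 cone genes 2 were above 10 TPM, Gnat2 and Gngt2. The cone list summed to 209 TPM in replicate 1 and 57.4 in replicate 2, and Cplx4 and Cplx2 were lower in replicate 2 as well. The part of photoreceptor RNA in the levels of Cplx4 and Cplx3 was not tested. Of 5 rod bipolar genes 1 was above 10 TPM, Rpa1, and the list summed to 42.6 and 69.0 TPM.

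Amacrine and ganglion cells carry conventional synapses. Of 12 amacrine genes 1, Pax6, was above 10 TPM in limma, against 32.4% of all genes, and the sum was 80.2 TPM in replicate 1 and 143 in replicate 2. Cplx1 was also higher in replicate 2, at 24.7 TPM against 14.2 TPM, as was Cplx3, while Cplx2 and Cplx4 were not. With 2 libraries, a direction shared by a gene and a list sum carries little information. Both libraries listed Chat and Calb2 at 0, while Gad1 had 0.06 TPM in replicate 1 and 10.4 in replicate 2, Gad2 0.11 and 9.94, and Tfap2b 0.33 and 20.4. Slc6a9, a glycine transporter gene, ran the other way, with 36.55 TPM in replicate 1 and 3.12 in replicate 2. Of 10 ganglion cell genes 1, Thy1, was above 10 TPM, with a list sum of 32.7 and 75.3 TPM, and Pou4f2, Pou4f3, Nefm and Sncg were listed at 0 in both libraries. Of 5 horizontal cell genes 1, Prox1, was above 10 TPM, and without it the list held Calb1 at 0.51 and 9.28 TPM as its next highest. Of 8 Muller glia genes, Glul and Clu were the 2 above 10 TPM, and the list summed to 188 TPM in replicate 1 and 403 in replicate 2. Vim held a large part of that gap, at 0.20 TPM in replicate 1 and 118.8 in replicate 2. Clu was lower in replicate 2, at 79.5 TPM against 85.7 TPM in replicate 1. The part of these other cells in the levels of Cplx1 and Cplx2, or of Cplx3 and Cplx4, was not tested. Gad1, Gad2, Tfap2b, Slc6a9, Calb1 and Vim were chosen after their values were seen.

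Fewer genes matched the ribbon-type complexins in level in both libraries than matched the conventional ones. Fewer genes also had a mean TPM within 2-fold of theirs, 178 for Cplx4 and 1245 for Cplx3, against 4886 for Cplx2 and 5556 for Cplx1. The counts below are therefore no result about the 2 types of complexin. Likeness was measured as the Euclidean distance on log2(TPM + 1) over the 2 libraries among 20316 protein-coding genes, which with 2 libraries describes level alone. No gene lay within 0.1 of Cplx4, and its nearest were Eno1, a glycolytic enzyme gene, at a distance of 0.164 and Npm1, which encodes a nucleolar protein, at 0.185. Within 0.1 of Cplx3 were 5 genes, the nearest of them Cul3, a ubiquitin ligase scaffold gene, and Hmgb1, a chromatin protein gene. Within 0.1 of Cplx2 were 57 genes, the nearest Rprd1a and Drosha, the nuclease gene of microRNA processing. Within 0.1 of Cplx1 were 16 genes, the nearest Stk39, a kinase gene of chloride cotransporter regulation, and Trpt1.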

How the data were processed

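RNA was measured in 2 libraries of 1 group, made from sorted cells with an Ovation RNA-seq V2 amplification kit, per the labels' protocols. The authors deposited TPM, 1 column for each library, and per the submitters' processing notes TopHat2 2.0.10, RSEM 1.2.28 and mm10 were used, with no role given. Strand use, filters and annotation are not stated. TPM holds no depth, so counting error cannot be given, and the spread between replicates may be technical in part. The column that misspells Htr3a was assigned to replicate 1 by its number.

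Values were put on the scale log2(TPM + 1). R 4.3.3 with limma 3.58.1 fitted an intercept-only model with a variance trend to 19968 genes, without the 12845 listed at 0 in both columns, and tested levels one-sided against 1, 10 and 100 TPM with Benjamini-Hochberg adjustment. The test was checked on simulated data. Their spread was drawn from the fitted variance trend, so the check could not show whether that trend holds for each gene. In the fit to the 2 libraries, the variance came from the trend alone (19968 total degrees of freedom). How well the libraries matched for a given gene therefore did not bear on its call. Python 3.11.15, pandas 2.3.3, matplotlib 3.10.9 and Biopython 1.88 were also used. Coding sequences were aligned globally (match 2, mismatch -1, gap opening -5, gap extension -1).

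The members and gene lists were chosen with earlier results of these data known. Named are the complexins, their chromosomal neighbours, the 2 genes nearest to each in level, the 4 highest and 2 lowest genes of each synaptic list, Vamp1, Stx1a, Stx3, Syn1 and Syn2, and markers of high or zero level. Some genes that this rule takes are not reported here. Alternatives were other pseudocounts, a filter on low values, limma without a trend or with a robust prior, rescaling without the mitochondrial genome, and each library alone.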

Additional observations from a re-analysis of the deposited data

How the results depend on the processing

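Of 74 alternative values for 10 results, 66 kept their direction and stayed within 1.5 times of the count, or within 1 SD of the value, and 8 did not. Some of these agreements were fixed in advance. With 2 libraries, a single library always lies within 1 SD of their mean, which holds for the difference and the share. Rescaling a library also leaves the share unchanged. The 4 complexins were above 1 TPM under each setting. Without a variance trend limma called 0 complexins above 100 TPM, against 2, and 2 farnesylation genes above 10 TPM, against 4. It then called 30 genes of the whole table above 100 TPM, against 815, and 742 at an unadjusted p under 0.05. With a pseudocount of 10, 1 gene of the conventional synapse list was above 10 TPM, against 2, and the ribbon-type minus conventional difference was 3.58, against 3.96, which a larger pseudocount shrinks by construction. Weighted by transcript length, an alternative chosen after seeing the data, this difference was 3.48 and the ribbon-type share 90.3%, against 94.9%. In single libraries, without a test, the counts at or over 10 TPM were 3 to 6 conventional synapse genes and 5 to 7 farnesylation genes, the higher ones without replicate 1. The ribbon-type share was 94.4% to 95.5% and the difference 3.81 to 4.10. No paired analysis was possible because the series has 1 group. Depth is unknown, so how far it limits Cplx1, the lowest member, cannot be given.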
